A study of Mus musculus with 18 samples.

Results

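The co-receptor genes *Cd4*, *Cd8a* and *Cd8b1* were followed through 3 populations of fetal mouse thymocytes and 3 genotypes of the transcription factor Gli3. They were chosen by name as the 3 genes that encode the CD4 and CD8 co-receptors, and each had 1 row with a single gene symbol among the 22180 genes analysed (41345 rows in the table). Thymocytes came from embryos at E18.5 on a C57BL/6 background that were wild type (WT), heterozygous (Gli3+/-) or homozygous (Gli3-/-) for a constitutive *Gli3* mutation, so stroma and thymocytes carried the mutation alike. Cells were stained for surface CD4, CD8 and CD69 and sorted by flow cytometry. Double-positive (DP) cells, CD4+CD8+, were split by CD69 into a CD69- and a CD69+ population, and SP4 cells were CD4+CD8-. No treatment was given. Each genotype of each population was hybridised on 2 arrays, which carry the numbers 1 and 2 in the labels and make 9 groups and 18 arrays in all. The proteins of the 3 genes were therefore part of the sort, and the values below describe the transcripts of populations that were defined by those proteins. The sources used here do not say how many embryos gave each sample, so a p-value measures the spread between the labelled samples.

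CD4 and CD8 are the co-receptors of the T-cell receptor (TCR). CD4 binds MHC class II and CD8 binds MHC class I, and both carry the kinase Lck to the TCR complex on their cytoplasmic tails. CD8 on thymocytes is mostly a heterodimer of the alpha chain, encoded by *Cd8a*, and the beta chain, encoded by *Cd8b1*; the alpha chain can also pair with itself, whereas the beta chain needs the alpha chain to reach the surface. DP cells express both co-receptors. After a TCR signal for positive selection, co-receptor expression is reduced and then resolved, so that mature helper-lineage cells keep CD4 and mature cytotoxic-lineage cells keep CD8. In mice, *Cd4* is shut off in cytotoxic-lineage cells through a silencer bound by Runx factors, and *Cd8a* and *Cd8b1* share a set of enhancers.

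*Cd8a* and *Cd8b1* are neighbours on mouse chromosome 6, with no other gene listed between them in the RefSeq annotation of GRCm38.p6, and *Cd4* lies on the same chromosome. Of the 3 genes, *Cd8a* was the one matched in the promoter table. Its 250 bases upstream of the annotated start are shown, since those of *Cd4* and *Cd8b1* were not available here. *Cd8a* also carries the largest change between populations among the 3 genes. The capitals mark E-boxes (CANNTG, read on either strand), the sites of the E proteins Tcf3 and Tcf12, whose genes are among the regulators described below.
Cd8a, chr6:71373177-71373426, + strand: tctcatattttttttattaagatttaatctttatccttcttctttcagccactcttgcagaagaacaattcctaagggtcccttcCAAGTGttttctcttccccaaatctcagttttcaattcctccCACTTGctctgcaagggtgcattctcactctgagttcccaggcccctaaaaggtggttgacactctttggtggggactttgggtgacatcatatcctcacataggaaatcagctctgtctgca
The stretch holds 2 E-boxes, which begin 165 and 123 bases upstream of the start. Such a match was common, since 66.2% of 32851 promoters of the same length held at least 1. The Runx motif TGTGGT, searched on both strands, had 0 matches in this window and was present in 14.0% of the promoters. These matches describe the sequence and were not tested as binding sites.

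RNA was hybridised to Affymetrix GeneChip Mouse Gene 2.0ST arrays, and intensities are given on the linear scale of the authors' RMA normalisation. Array medians lay between 59.3 and 65.8. Rows of olfactory and vomeronasal receptors, which serve here as a background level (1400 rows), had medians of 13.9 to 15.0 and 95th percentiles of 65.0 to 80.6. The lowest value of any member on any array was 880, so all 3 genes stood above that background throughout. The *Gli3* row was dim in all genotypes (29.4 to 37.1 in WT, 27.6 to 34.0 in Gli3+/- and 27.9 to 32.7 in Gli3-/-) and does not check the labels. *Eif2s3y*, a Y-linked gene, was 15.1 to 22.5 on the 6 Gli3-/- arrays against 311 to 696 in WT and 229 to 489 in Gli3+/-, so genotype and the sex of the embryos cannot be told apart in comparisons with Gli3-/-. *Xist*, which female cells express for X inactivation, was 39.7 to 52.4 on the 3 number 1 arrays of WT, 2726 to 2946 on those of number 2, and 2977 to 3330 in Gli3+/-, where *Eif2s3y* was also present. Sex therefore differed between WT and Gli3+/- in number 1 as well, and samples that carried both transcripts may hold several embryos. Number 2 and number 1 arrays differed in 11.6% of genes (limma, Benjamini-Hochberg adjusted p under 0.05, the rule for every call below), and the same number moved together across groups. Results are therefore also given within each number. Of the members, *Cd8b1* differed most between numbers (log2 +0.25 in number 2, adjusted p = 0.107), and none passed.

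*Cd4* was highest before selection. In CD69- DP cells the WT arrays read 1804 and 1485, the Gli3+/- arrays 1764 and 1647 and the Gli3-/- arrays 1777 and 1396 (numbers 1 and 2). In CD69+ DP cells the WT arrays read 905 and 1201, the Gli3+/- arrays 897 and 1257 and the Gli3-/- arrays 1037 and 1099. In SP4 cells the WT arrays read 1120 and 991, the Gli3+/- arrays 1208 and 1038 and the Gli3-/- arrays 1274 and 880. All 6 CD69- DP arrays lay above all arrays of the other populations, and the CD69+ DP and SP4 arrays overlapped. Averaged over the genotypes, *Cd4* fell from CD69- DP to CD69+ DP cells by 0.63 on the log2 scale (SE 0.12, adjusted p = 0.00575), a 1.55-fold drop. The log2 difference between SP4 and CD69+ DP cells was +0.03 (SE 0.12) and did not pass (adjusted p = 0.939). In SP4 cells *Cd4* was lower than in CD69- DP cells (log2 difference -0.61, adjusted p = 0.00496, 1.52-fold). In whole sorted populations, fewer cells with a transcript and less transcript per cell cannot be told apart.

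*Cd8a* was lowest in SP4 cells, and of its single steps the one into SP4 passed. Its intensity on the CD69- DP arrays was 4483 and 4414 (WT), 3972 and 4418 (Gli3+/-) and 4398 and 3822 (Gli3-/-). On CD69+ DP arrays it was 3512 and 3874 (WT), 2951 and 4101 (Gli3+/-) and 3002 and 3574 (Gli3-/-). On SP4 arrays it was 1120 and 1938 (WT), 2245 and 2390 (Gli3+/-) and 2689 and 2064 (Gli3-/-). The SP4 arrays lay below every DP array, and the arrays of the DP populations overlapped. The difference between CD69+ DP and CD69- DP cells was -0.29 (SE 0.13) and did not pass (adjusted p = 0.235). From CD69+ DP to SP4 cells *Cd8a* fell by 0.80 (SE 0.13, adjusted p = 0.00268, 1.74-fold), and from CD69- DP to SP4 cells by 1.08 (adjusted p = 0.000121, 2.12-fold).

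*Cd8b1* was lower in SP4 than in CD69- DP cells, by less than *Cd8a*. The CD69- DP intensities were 4642 and 4552 (WT), 4291 and 4463 (Gli3+/-) and 4519 and 4063 (Gli3-/-). The CD69+ DP intensities were 3108 and 4311 (WT), 2997 and 4039 (Gli3+/-) and 2882 and 3721 (Gli3-/-). The SP4 intensities were 1721 and 3143 (WT), 2644 and 3371 (Gli3+/-) and 3126 and 2885 (Gli3-/-). SP4 arrays lay below all CD69- DP arrays but overlapped those of CD69+ DP cells. Neither single step passed (-0.35, adjusted p = 0.185, into CD69+ DP, and -0.33, adjusted p = 0.214, into SP4), whereas the fall from CD69- DP to SP4 cells by 0.68 did (SE 0.14, adjusted p = 0.0067). Without number 2 of WT SP4, the step into SP4 passed at -0.48 (adjusted p = 0.0384).

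**Figure D1:**
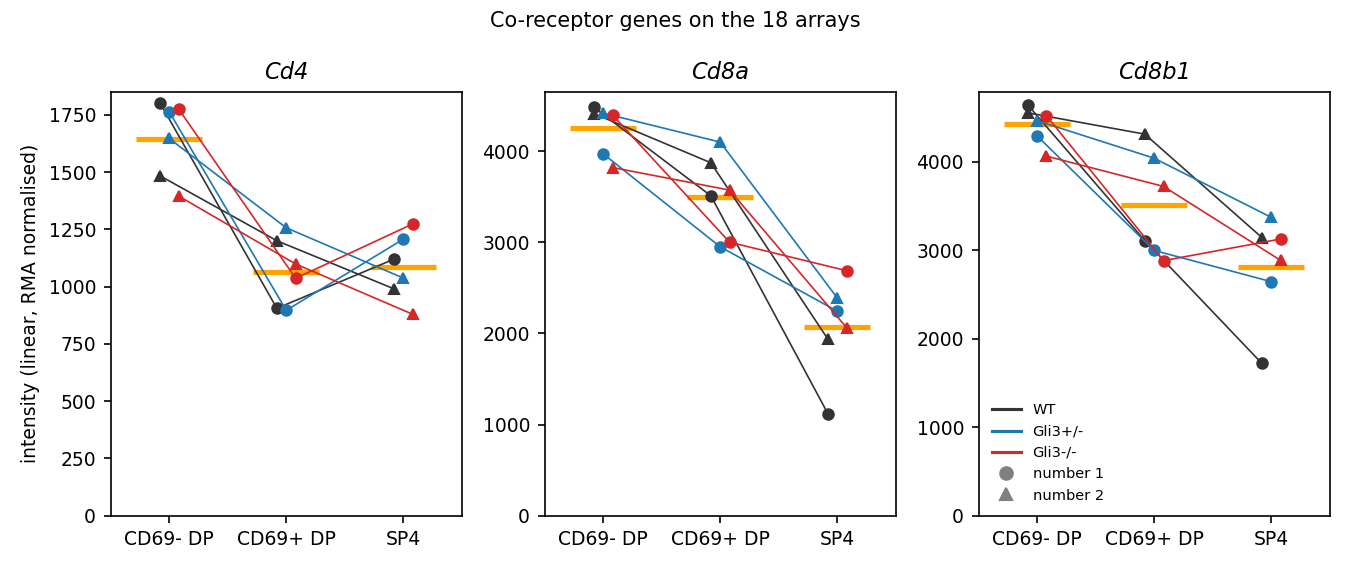
Intensity of *Cd4*, *Cd8a* and *Cd8b1* (linear axis from 0) by population. Each line joins the arrays of 1 genotype and number, colours are genotypes, and orange bars are means of 6 arrays. *Cd4* drops before SP4 and *Cd8a* drops at SP4, and the lowest *Cd8a* value (1120) belongs to number 1 of WT.

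Counts of members can be read against all genes tested. From CD69- DP to CD69+ DP cells 7.79% of the 22180 genes passed, 3.06% higher and 4.73% lower in CD69+ DP, and 1 of the 3 members (*Cd4*) was among the lower ones. From CD69+ DP to SP4 cells 6.15% passed, 4.41% higher and 1.74% lower, and again 1 member (*Cd8a*) was lower. From CD69- DP to SP4 cells 9.78% passed, 5.94% higher and 3.84% lower, and all 3 members were lower. Within single genotypes fewer genes passed, since each comparison had 2 arrays on each side. The step into CD69+ DP had 0.681% of genes called in WT, 0.189% in Gli3+/- and 0.289% in Gli3-/-, with 0 members. The step into SP4 had 0.618%, 0.0721% and 0.194%, with *Cd8a* called in WT alone (log2 difference -1.32, adjusted p = 0.0198). SP4 against CD69- DP had 3.62%, 0.672% and 0.969%, with *Cd8a* (-1.59, adjusted p = 0.00184) and *Cd8b1* (-0.98, adjusted p = 0.0436) called in WT. Both the *Cd8a* call at the step into SP4 and the *Cd8b1* call rested on number 1 of WT SP4, without which the differences were -0.93 (adjusted p = 0.115) and -0.55, and other alternatives ended them too. With the replicate number as a block, *Cd8a* also passed between SP4 and CD69- DP cells in Gli3+/- (-0.85, adjusted p = 0.0494, 1.77% of genes called, against 0.125 without the block).

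The order of the 9 group means followed the populations for *Cd8a* and *Cd8b1*, and set CD69- DP apart from the rest for *Cd4*. For *Cd4* the 3 CD69- DP groups (means 1587 to 1706) overlapped with their neighbours in the order, as did the 6 other groups (1053 to 1123), and no array of the former reached down to the latter. For *Cd8a* the means declined from 4448 in WT CD69- DP to 3288 in Gli3-/- CD69+ DP cells with overlapping neighbours. Then came Gli3-/- SP4 (2376) and Gli3+/- SP4 (2317), which overlapped, and WT SP4 (1529), whose 2 arrays lay below both. For *Cd8b1* the means ran from 4597 in WT CD69- DP to 2432 in WT SP4 cells, and all neighbours overlapped except WT and Gli3+/- CD69- DP at the top. *Cd8a* and *Cd8b1* followed each other across the arrays (Pearson r = 0.923 over 18 arrays, 0.963 within CD69- DP, 0.896 within CD69+ DP and 0.902 within SP4, 6 arrays each). The correlation of *Cd4* with *Cd8a* was 0.587 and with *Cd8b1* 0.653 over 18 arrays, and within SP4 it was 0.143 and -0.179. These arrays share groups and numbers, so the correlations are descriptions.

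The steps depended on the replicate number for *Cd4*. As a percentage of the CD69- DP array of the same genotype and number, *Cd4* in CD69+ DP cells was 50.2 to 58.3% for number 1 and 76.3 to 80.9% for number 2, lower in 6 of 6 pairs. From CD69+ DP to SP4 cells it rose to between 123 and 135% in the 3 number 1 pairs and fell to between 80.0 and 82.5% in the 3 number 2 pairs, so the mean near 0 joins opposite directions. Over both steps the numbers met again, at 62.1 to 71.7% and 63.0 to 66.7%. The numbers also differed in the CD69+ DP arrays themselves. *Itm2a*, a gene induced at positive selection, was 2003 to 2263 there in number 1 and 810 to 1141 in number 2. *Il7r*, the IL-7 receptor chain that thymocytes regain after selection, was 388 to 408 and 83.9 to 169, and *Rag2*, a recombinase gene shut off after selection, was 623 to 769 and 1239 to 1679. These genes were picked from their lists, whose other genes did not all split alike. *Klf2*, a maturation gene, went the other way, at 135 to 160 in number 1 and 202 to 271 in number 2. *Cd5*, a gene of positive selection, overlapped (2861 to 3762 and 2580 to 2908). Immediate early genes, listed here as a sign of cell handling, split further, and *Jun* and *Fos* are named after their values were seen. *Jun* was 62.9 to 108 on the number 1 arrays of CD69+ DP and 433 to 543 on those of number 2, and *Fos* 47.9 to 69.7 and 268 to 456. Over all 18 arrays number 2 was higher by 2.59 for *Jun* (adjusted p = 1.15e-07) and by 2.29 for *Fos* (adjusted p = 3.06e-06). The part of these differences in the *Cd4* values was not tested.

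*Cd8a* and *Cd8b1* fell into CD69+ DP cells in 6 of 6 pairs each, to 68.3 to 78.3% and 63.8 to 69.9% in number 1 and to 87.8 to 93.5% and 90.5 to 94.7% in number 2. The first *Cd8a* step was 78.3% in number 1 of WT, 74.3% in that of Gli3+/- and 68.3% in that of Gli3-/-. At the step into SP4 *Cd8a* was lower in 6 of 6 pairs, with 31.9 to 89.6% in number 1 and 50.02 to 58.3% in number 2. In number 1 of Gli3+/- and of Gli3-/- the second step (76.1% and 89.6%) was thus the smaller of the pair. *Cd8b1* was lower in 5 of 6, with 55.4 to 108% and 72.9 to 83.4%. The *Cd8* genes thus kept their direction within both numbers at each step, with 1 exception (*Cd8b1* in number 1 of Gli3-/-).

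The balance between the genes was taken within each array, as log2 *Cd4* minus the mean log2 of the *Cd8* genes and as log2 *Cd8b1* minus log2 *Cd8a*. Rows of different genes have different probes, so only changes of these balances between populations are read. Whether the rows follow a change to the same degree was not tested. An exact sign-flip permutation test was run over the 6 pairs (two-sided, smallest possible p = 0.03125, 6 tests adjusted together). That test treats the pairs as independent, although samples of the same number moved together, so its p-values may be too small. The balance moved away from *Cd4* between CD69- DP and CD69+ DP cells, by -0.31 (SD 0.16, 6 of 6 pairs lower, exact p = 0.03125, adjusted p = 0.0469). It moved towards *Cd4* between CD69+ DP and SP4 cells, by +0.59 (SD 0.51, 6 of 6 higher, exact p = 0.03125, adjusted p = 0.0469). The single pairs ranged from +0.24 to +1.56 at that step, and the means were +1.004 in WT, +0.48 in Gli3+/- and +0.29 in Gli3-/-. The WT mean joined +1.56 in number 1 and +0.45 in number 2, so the order of the genotypes rested on 1 pair. Without that pair the shift over the other 5 was +0.40 (5 pairs allow no exact p under 0.0625). Over both steps the net shift was +0.28 (5 of 6 higher, exact permutation p = 0.0625, adjusted p = 0.075), and +0.13 without number 1 of WT.

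The CD8 chains also came apart. *Cd8b1* minus *Cd8a* changed little between CD69- DP and CD69+ DP cells (-0.06, SD 0.11, exact permutation p = 0.219). Between CD69+ DP and SP4 cells it rose by 0.46 (SD 0.21, 6 of 6 higher, exact permutation p = 0.03125, adjusted p = 0.0469), a 1.38-fold shift towards *Cd8b1*. The rise was +0.67 in WT, +0.37 in Gli3+/- and +0.35 in Gli3-/-, on 2 pairs each, and its single values ran from +0.21 to +0.80. Against CD69- DP cells it was +0.40 (6 of 6 higher, exact permutation p = 0.03125, adjusted p = 0.0469).

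**Figure D2:**
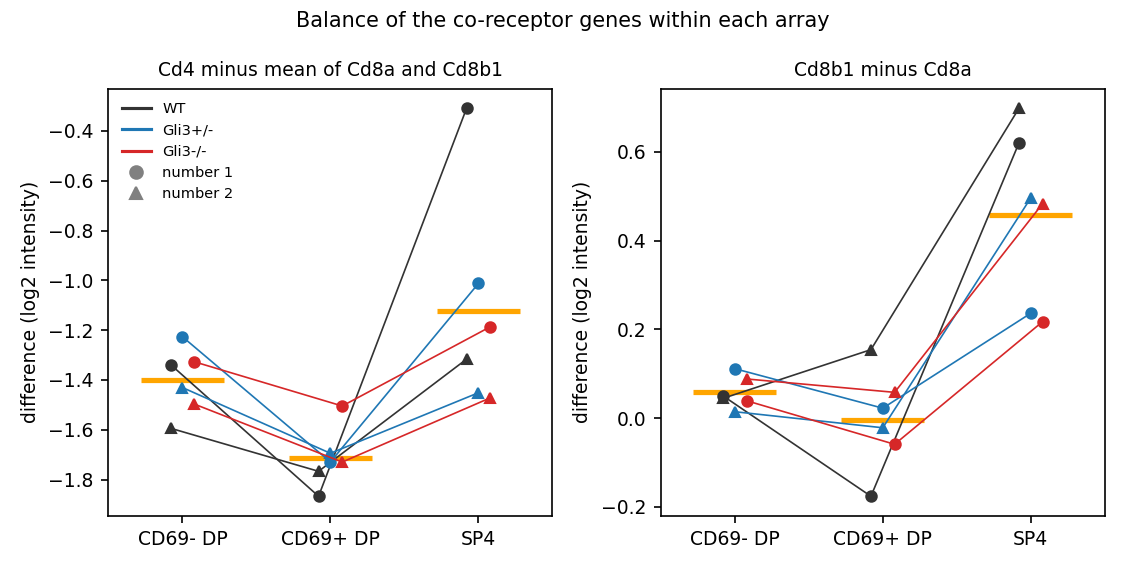
Log2 *Cd4* minus the mean log2 of *Cd8a* and *Cd8b1* (left) and log2 *Cd8b1* minus log2 *Cd8a* (right) on each array by population. Lines join arrays of 1 genotype and number, and orange bars are means of 6. The left balance dips in CD69+ DP and rises in SP4 in all 6, furthest in number 1 of WT (+1.56), and the right balance rises at SP4 in all 6.

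SP4 cells were sorted as CD8-, so the transcripts of the CD8 chains in them were set against the CD69+ DP array of the same genotype and number. *Cd8a* in SP4 stood at 31.9% and 50.02% of the CD69+ DP level for numbers 1 and 2 of WT, 76.1% and 58.3% for those of Gli3+/- and 89.6% and 57.8% for those of Gli3-/-, with a median of 58.0%. *Cd8b1* stood at 55.4% and 72.9% (WT), 88.2% and 83.4% (Gli3+/-) and 108% and 77.5% (Gli3-/-), with a median of 80.5%. Subtraction of the array background moved no median by more than a point (57.9% and 80.4%). Both CD8 transcripts were thus well above background in cells sorted as CD8-. Whether these transcripts came from cells that had lost surface CD8 or from DP cells in the gate was not tested.

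Most of the other DP-stage genes listed here fell before the SP4 step, as *Cd4* did. The list was drawn up with earlier results of these data known, so its fall out of CD69- DP cells is only a description. Of 9 DP-stage genes measured, 6 fell and 1 rose between CD69- DP and CD69+ DP cells, whereas between CD69+ DP and SP4 cells 1 fell and 0 rose, with a median log2 difference of -0.07 against -0.02 over all genes. The means of *Rag2* ran 1909, 1045 and 979 over the 3 populations in their order of maturation (first step -0.96, adjusted p = 0.0338, second step -0.07, adjusted p = 0.924). *Dntt*, which encodes terminal transferase, had means of 1097, 399 and 446. *Arpp21* had 1459, 781 and 796, *Tdrd5* 761, 354 and 328, and *Slc7a11*, the cystine transporter, 994, 352 and 414. *Ccr9*, a chemokine receptor of DP cells, was the gene that fell into SP4, from 1401 to 908 (-0.63, adjusted p = 0.012) and in all 6 pairs (57.5 to 73.5%). *Ptcra*, the pre-TCR alpha chain, was at 114 to 236% of its CD69+ DP level, without passing (adjusted p = 0.135); with the replicate block it rose into SP4 (adjusted p = 0.00267), after a fall into CD69+ DP cells (adjusted p = 0.00318).

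**Figure D3:**
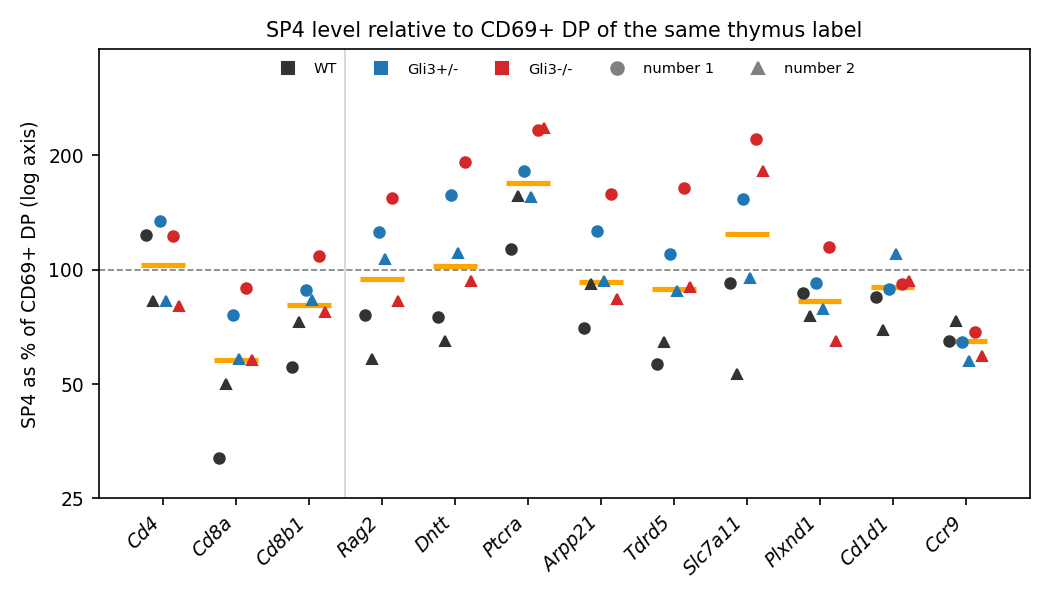
SP4 intensity as a percentage of the CD69+ DP array of the same genotype and number (log axis, dashed line at 100%) for the 3 co-receptor genes, left of the grey line, and the DP-stage genes. Orange bars are medians of 6 pairs. *Cd8a* and *Ccr9* lie below 100% in all 6 pairs, and most DP-stage genes scatter about it.

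Genes of maturation were higher in the same SP4 arrays. Of 7 measured, 6 rose between CD69+ DP and SP4 cells and 0 fell. *Il7r* had means of 23.8, 265 and 1356 in the 3 populations (step into SP4 +2.45, adjusted p = 0.00333), and *Ccr7*, a receptor for migration to the medulla, rose by 1.22 (adjusted p = 0.0145). *S1pr1*, the receptor for thymic exit, rose by 0.96 (adjusted p = 0.000453), and *Bcl2*, a survival gene, by 0.87 (adjusted p = 0.0247). Of 5 genes of the CD4 lineage, 2 rose and 2 fell at this step. *Cd40lg*, the helper-cell ligand CD40L, rose from a mean of 73.2 to 342 (+2.08, adjusted p = 0.00716), and *Il6ra* rose by 0.63 (adjusted p = 0.0263). *Tox* fell by 0.69 (adjusted p = 0.00308) and *Gata3* by 0.44 (adjusted p = 0.0214), after both had risen into CD69+ DP cells. The lineage factor *Zbtb7b* (ThPOK) was dim, with means of 65.8, 69.8 and 86.5, and did not pass (+0.29, adjusted p = 0.181). Of 9 genes of CD8-lineage cells, 3 rose into SP4 (*Runx3* by 0.64, *Itgae* by 1.0 and *Nkg7* by 0.71) and 0 fell. Of 8 genes of positive selection all rose into CD69+ DP cells, and 6 fell and 0 rose from there into SP4, *Cd5*, a negative regulator of TCR signals, by 1.0 (adjusted p = 0.000158). The 8 include *Tox* and *Gata3*, which are also counted with the CD4 lineage and the regulators, so these counts overlap. They also include *Cd69*, whose protein set the gate, so its rise into CD69+ DP cells was given by the sort. *Cd69* itself had means of 156, 1054 and 687, in the order of the gates for the DP populations.

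Some transcripts of other cell types were also present at a higher level in SP4. The summed intensity of the 9 neutrophil genes was 370 to 409 in CD69- DP, 384 to 795 in CD69+ DP and 551 to 1461 in SP4 cells, and 4 of the 9 rose at the step into SP4. *S100a8* had means of 22.2, 66.7 and 485 (+3.37, adjusted p = 0.000692), and on SP4 arrays it was 126 in number 1 of Gli3-/- and 495 to 619 on the other 5. Of 9 macrophage genes 2 rose (*Lyz2* by 1.71 and *Cd68* by 0.53), with sums of 728 to 837 in CD69+ DP and 780 to 1119 in SP4 cells. The macrophage list was mixed, with 5 genes higher and 4 lower, and with the replicate block 3 rose and 1 fell. *C1qb* was among the lower ones, with means of 106 in CD69+ DP and 82.3 in SP4 cells. Of 6 dendritic genes 4 rose, with sums of 297 to 372 and 462 to 706 (*Irf8* by 1.51, adjusted p = 0.000148). In SP4 5 of the 6 were higher than in CD69+ DP cells and 1 was lower. The lower gene was *Zbtb46* (means 47.0 in CD69+ DP and 45.4 in SP4 cells), below the background limit on every array. Of 6 genes of DN and immature single-positive cells 3 rose, among them *Il2ra* (+0.89, adjusted p = 0.000625) and *Kit* (+0.63, adjusted p = 0.00341), with sums of 630 to 852 and 974 to 1402, and 5 of the 6 rose with the replicate block. With that block 7.66% of all genes rose at this step and 3.5% fell, against 4.41% and 1.74% without it. *Tyrobp*, 1 of 3 NK-cell genes measured, rose by 1.46 (adjusted p = 0.00602). The other NK-cell genes were slightly lower in SP4 and stayed below the background limit on every array. Their means in CD69+ DP and SP4 cells were 54.4 and 49.7 (*Ncr1*) and 37.9 and 36.5 (*Klrb1c*). Of 3 genes of gamma-delta, NKT and regulatory T cells 1 rose. None of the 4 B-cell, 2 erythroid and 4 epithelial genes passed, nor any of 6 immediate early genes of cell handling, and of 6 stromal genes 1 fell. No marker on these arrays was at 0, and many lay below the background limit; of the neutrophil genes 3 and of the dendritic genes 2 exceeded it on all 6 SP4 arrays. The part of these cells in the co-receptor values of SP4 was not tested.

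Number 1 of WT SP4 stood apart from the other SP4 arrays in the *Cd8* genes, with *Cd8a* at 1120 against 1938 to 2689 and *Cd8b1* at 1721 against 2644 to 3371. The same array was the lowest of 6 for 6 of the 9 DP-stage genes (*Rag2*, *Ptcra*, *Arpp21*, *Tdrd5*, *Slc7a11* and *Plxnd1*) and the highest for 3 of the 7 maturation genes, 4 of the 5 CD4-lineage genes and 7 of the 8 selection genes. *Gata3* is counted on both the CD4-lineage and the selection list. *Il7r* was 2195 there against 504 to 1782, and *Cd40lg* 775 against 95.9 to 410. *Cd4* on it was 1120, within the range of the others (880 to 1274). It was the lowest of 6 for 1 of the 9 neutrophil genes and the highest for 0.

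The question that the study put to the genotypes was whether Gli3 affects maturation from DP to SP4, and for the co-receptor genes none of the genotype comparisons passed. In Gli3-/- against WT, the share of genes that passed was 0.0135% at the CD69- DP stage, 0.00902% at the CD69+ DP stage and 0.0135% at SP4, with 0 of the 3 members (limma; 1 member, *Cd8a* in SP4, had an unadjusted p under 0.05). In Gli3+/- against WT 0% passed in each population (again *Cd8a* in SP4 alone under 0.05 unadjusted), and in Gli3-/- against Gli3+/- 0.00451% in each. The shares of Gli3-/- against WT stand for 3, 2 and 3 genes. Of these, 3, 2 and 2 were Y-linked genes lower in Gli3-/-, for which genotype and sex cannot be told apart. In CD69- DP cells the differences of Gli3-/- from WT were -0.06 for *Cd4*, -0.12 for *Cd8a* and -0.10 for *Cd8b1*, and in CD69+ DP cells +0.03, -0.17 and -0.16, each with an SE of 0.21 to 0.25.

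In SP4 cells *Cd8a* was higher in the mutants than in WT on all 4 arrays (2064 to 2689 against 1120 and 1938). The log2 difference was +0.68 in Gli3-/- (SE 0.22, unadjusted p = 0.00923, adjusted p = 0.913), the 80th highest of the 22180 genes, and +0.65 in Gli3+/- (SE 0.22, unadjusted p = 0.0114, adjusted p = 0.9998), the 55th highest. For *Cd8b1* they were +0.37 and +0.36, and for *Cd4* +0.01 and +0.09. Within numbers the *Cd8a* level of Gli3-/- was 240% of WT in number 1 and 107% in number 2, and that of Gli3+/- was 200% and 123%. *Cd8b1* in Gli3-/- was 182% and 91.8%. Without number 1 of WT SP4, the array that stood apart, the *Cd8a* difference was +0.28 in Gli3-/- and +0.26 in Gli3+/-, and that of *Cd8b1* in Gli3-/- was -0.07. The difference between genotypes thus rested largely on 1 WT array. Other lists moved beside it in Gli3-/- against WT SP4 cells, with no gene passing in any list named here. Of the 9 DP-stage genes 8 were higher (median +0.49 against -0.02 over all genes), and against number 2 of WT alone 6 were (median +0.063). Of the 8 selection genes 7 were lower (median -0.37, or -0.31 against number 2 alone). Of the 9 neutrophil genes 8 were lower (median -0.17, or -0.37) and of the 9 macrophage genes 7 (median -0.32, or -0.35 with 8 lower). The maturation genes were 3 higher and 4 lower, and 6 higher and 1 lower against number 2 alone. The part of these lists in the *Cd8a* difference was not tested.

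The change of the Gli3-/- effect between populations was tested directly. For *Cd8a* it was +0.85 from CD69+ DP to SP4 (SE 0.32, unadjusted p = 0.0182, adjusted p = 0.9996) and +0.80 from CD69- DP to SP4 (adjusted p = 0.9998), and for *Cd8b1* +0.53 and +0.47. For *Cd4* the values were -0.03 and +0.06. From CD69- DP to CD69+ DP they were +0.09, -0.05 and -0.06 for *Cd4*, *Cd8a* and *Cd8b1*. In these 3 tests 0% of genes passed, with 458 to 858 genes under an unadjusted p of 0.05, so a difference between the steps of WT and Gli3-/- cells was not shown. Without number 1 of WT SP4 the first *Cd8a* value was +0.45.

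**Figure D4:**
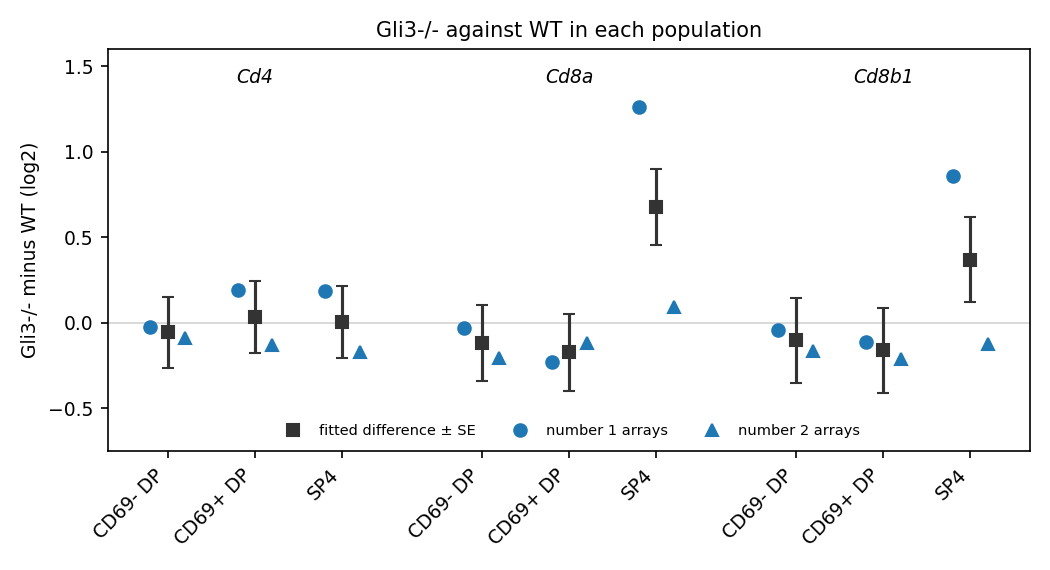
Log2 difference of Gli3-/- from WT for each gene and population. Squares are fitted differences with their SE (2 arrays against 2), circles and triangles the differences within number 1 and number 2. In SP4 the *Cd8a* difference is +1.26 in number 1 and +0.09 in number 2. That of *Cd8b1* is +0.86 and -0.12, so its sign turns. In the DP populations the fitted values lie between -0.17 and +0.03.

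Regulators of the co-receptor loci changed in both directions. Of 22 measured, 6 rose and 1 fell between CD69- DP and CD69+ DP cells, and 1 rose and 5 fell between CD69+ DP and SP4 cells (median log2 +0.11 and -0.14, against +0.01 and -0.02 over all genes). *Runx3*, which silences *Cd4* in CD8-lineage cells, rose at both steps (means 64.3, 90.9 and 142; +0.51, adjusted p = 0.00455, and +0.64, adjusted p = 0.00132), from a level near the background limit. Its relative *Runx1*, which silences *Cd4* in DN cells, did not pass (-0.33, adjusted p = 0.102, or 0.0469 with the replicate block, and +0.26, adjusted p = 0.211), and neither did their partner *Cbfb* (adjusted p = 0.871 at the first step). *Tox* and *Gata3*, both needed for CD4-lineage cells, rose by 1.47 and 0.85 into CD69+ DP and fell again as given above. *Lef1*, an HMG-box factor, rose by 0.99 (adjusted p = 9.17e-05) and did not pass at the step into SP4 (-0.19, adjusted p = 0.328).

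*Myb*, a factor that acts upstream of *Gata3* in CD4-lineage cells, had means of 3049, 3073 and 1901 and fell into SP4 by 0.73 (SE 0.13, adjusted p = 0.00392). It was lowest on number 1 of WT SP4 (1106, against 1842 to 2349). *Ikzf1*, the gene of Ikaros, which binds the *Cd8* loci, rose by 0.54 and fell by 0.46 (adjusted p = 0.00078 and 0.00261). *Stat5b*, a mediator of IL-7 signals, rose by 0.47 and fell by 0.62 (adjusted p = 0.00335 and 0.000692). *Smarca4*, the BRG1 ATPase of the BAF complex, fell into CD69+ DP cells by 0.37 (adjusted p = 0.0365). Of the E proteins, *Tcf3* had means of 287, 287 and 292 and *Tcf12* of 1415, 1157 and 1009, and neither passed at a single step. *Patz1* and *Bcl11b*, both tied to the *Cd8* locus in mice, did not pass either. None of the 22 passed between Gli3-/- and WT cells in any population.

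Of the partners of the co-receptors at the TCR 8 were measured, and 3 of them rose into CD69+ DP cells, *Fyn*, a kinase related to Lck, by 0.80 (adjusted p = 0.00157), *Csk*, which restrains both kinases, by 0.45 (adjusted p = 0.00456) and *Zap70*, the kinase that follows them, by 0.37 (adjusted p = 0.0307). Into SP4 cells *Zap70* fell by 0.41 (adjusted p = 0.0215) and the other 7 did not pass. With the replicate block 4 fell (*Fyn*, *Ptprc*, *Cd3g* and *Zap70*), where 3.5% of all genes fell. The CD3 chains *Cd3d*, *Cd3e* and *Cd3g* had means of 3399, 3125 and 3147 in CD69- DP and 3298, 3074 and 3091 in SP4 cells. *Lck* and *Cd247* were not analysed here.

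**Figure D5:**
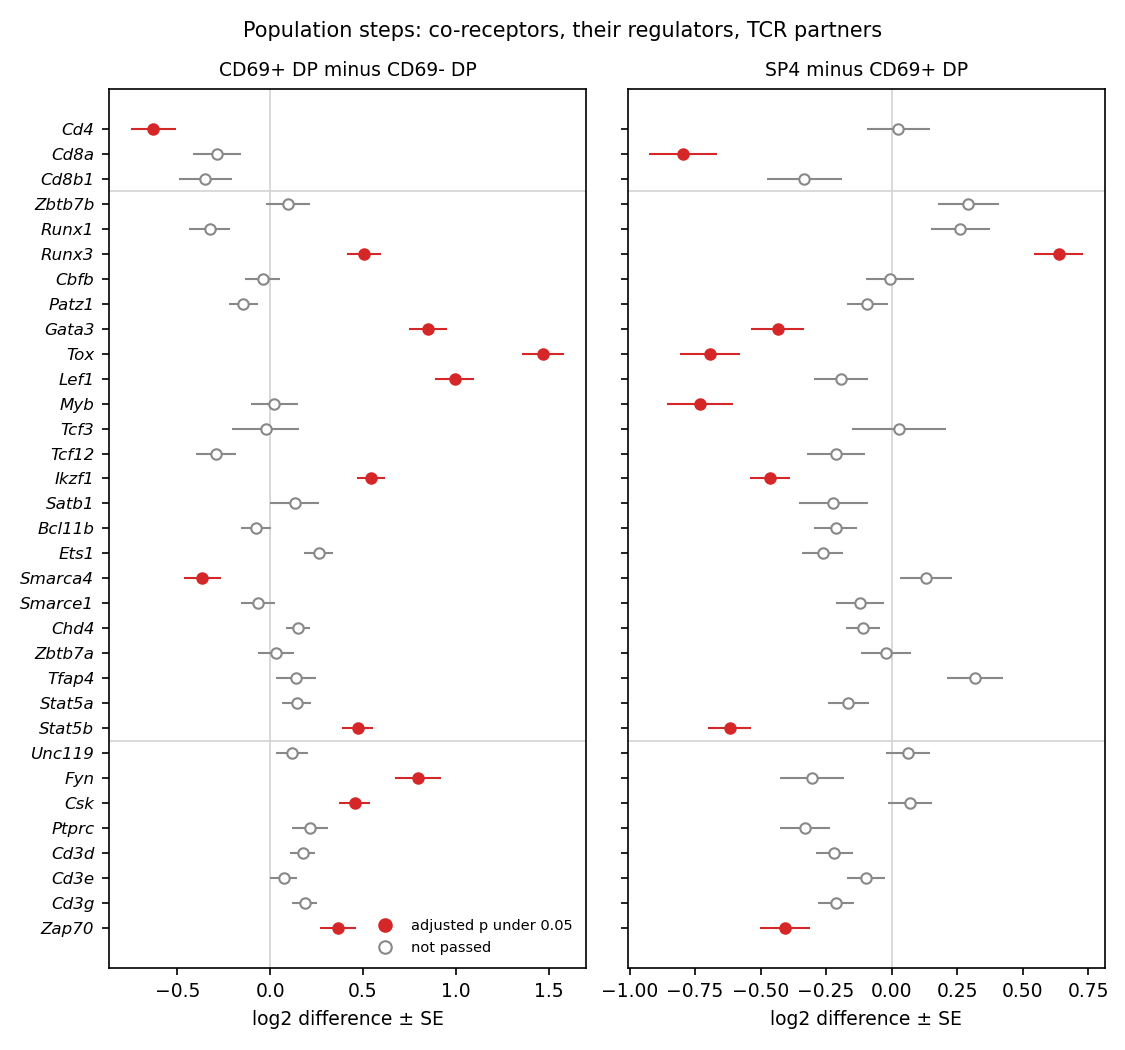
Log2 differences with SE at the steps into CD69+ DP (left) and into SP4 (right), averaged over the genotypes, for the co-receptor genes, their regulators and their partners at the TCR, separated by grey lines. Red points passed (adjusted p under 0.05). *Cd4* is red on the left, *Cd8a* on the right, and *Tox*, *Gata3*, *Ikzf1*, *Stat5b* and *Zap70* are red on both sides with opposite signs.

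Each member was compared over the 18 arrays with 10434 genes that were not dimmer on average than the median row. Provisional gene names, small RNAs, olfactory and vomeronasal receptors and TCR segments had been left out. The genes with the most similar pattern were then sought by Pearson r of log2 values. For *Cd4* these were *Abcg3* (0.928), *Esrp1* (0.926), *Dntt* (0.918), *Hmgb1* (0.916) and *Bbof1* (0.908), and the most opposite were *Nr4a3* (-0.909), *Nifk* (-0.907) and *St6galnac2* (-0.900). *Dntt* had the same order of means as *Cd4*, with SP4 close to CD69+ DP, whereas *Nr4a3*, a nuclear receptor induced by TCR signals, ran from 53.4 in CD69- DP to 292 and 223. For *Cd8a* the most similar were *Trp53inp1* (0.959), *Ano6* (0.953), *Cbl* (0.952), *Glcci1* (0.952) and *Ccng2* (0.944), and the most opposite *Mboat1* (-0.946), *Lfng* (-0.943) and *Cad* (-0.932). *Cbl*, a ubiquitin ligase of TCR signalling, had means of 2172, 1911 and 1528, and *Lfng*, a modifier of Notch receptors, 110, 130 and 196. For *Cd8b1* the most similar were *Mr1* (0.969), *Cers6* (0.967), *Lig4* (0.966), *Bach1* (0.960) and *Ifngr1* (0.958), and the most opposite *Tarbp1* (-0.982), *Srpk1* (-0.939) and *Slc39a10* (-0.933). *Mr1*, an MHC-related antigen-presenting molecule, had means of 709, 447 and 370. The order among close values was not firm. Over the 9 group means 0 of the 5 most similar genes remained among the top 5 of any member, although each still had an r of 0.951 or more, and with the replicate numbers centred 2 remained for *Cd4*, 3 for *Cd8a* and 2 for *Cd8b1*.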

How the data were processed

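Transcripts of sorted thymocytes were read on 18 microarrays (Affymetrix Mouse Gene 2.0ST), 2 for each of 9 groups taken from the deposited labels. The authors normalised the arrays with oligo and RMA (versions and genome build not given in the sources used here) and deposited intensity values on a linear scale, of which log2 was taken here, although the plan had assumed log2 values. No column (0) lacked a listed sample. The platform annotation gave 1 symbol to 23521 rows, more than 1 to 1820 and no symbol to 16004. The brightest row of each symbol was kept.

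Group means were fitted with limma 3.58.1 in R 4.3.3 (9 residual and 4.73 prior degrees of freedom, no block), with Benjamini-Hochberg adjustment over all genes and a threshold of 0.05. The number of arrays limits the precision. The fit was tested on simulated data. Same-numbered samples deviated together in all 18 compared pairs of groups, of the same genotype or population (correlation of deviations 0.134 to 0.549). The lowest correlation over all 36 pairs of groups was 0.078, so this check shows a shift by number and does not single out a labelled thymus. Arrays were paired by the genotype and number in the titles. Alternatives were the replicate number or labelled thymus as a block, other normalisations and filters, another prior, background subtraction and the omission of each array.

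Of 142 genes on the lists, 127 were measured on a row of their own. Named were the members, genes of the lists of partners, regulators, DP stage, selection, maturation and lineages, up to 3 genes of each other list with the largest SP4 difference, *Eif2s3y*, the mutated *Gli3*, and the genes most similar or opposite to each member. Some genes of those other lists that were lower in SP4 are named too. The members and lists were chosen with earlier results of these data known. Promoter sequence is from RefSeq, matched by symbol for 1 of 3 members.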

Additional observations from a re-analysis of the deposited data

Results flagged for a closer look

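A sample far from the others was sought among the 6 arrays of each population, with the genotypes pooled, and among the 6 paired differences of the balances, by the share of the range taken by the gap to the nearest value (Dixon's 95% critical value). Of 21 such groups 4 were flagged, where chance flags about 1 in 20, and all 4 concern number 1 of WT SP4. The groups overlap in their data and are not independent. On that array the log2 intensity of *Cd8a* was 10.13 (the next lowest was 10.92) and that of *Cd8b1* 10.75 (next 11.37). In that pair, log2 *Cd4* minus the mean of the *Cd8* genes changed by 1.56 between CD69+ DP and SP4 cells (next 0.72) and by 1.03 between CD69- DP and SP4 cells (next 0.28).

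*Cd4* moved in opposite directions by replicate number at the step into SP4. The mean log2 change was 0.34 in the 3 number 1 pairs, all higher, and -0.29 in the 3 number 2 pairs, all lower; this difference was not tested.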

How the results depend on the processing

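Of 1096 values under alternatives to 104 results, 65 changed direction, 28 no longer passed and 3 newly passed. The calls of *Cd4*, *Cd8a* and *Cd8b1* averaged over genotypes kept both in every alternative run. The replicate block changed 1 call of a member, *Cd8a* between SP4 and CD69- DP in Gli3+/- (-0.85, adjusted p = 0.0494), and no other. In WT, the *Cd8a* call at the step into SP4 was lost with all rows tested (adjusted p = 0.0834), with background subtracted (0.0717) and without number 1 or 2 of WT CD69+ DP (0.0686 and 0.146) or number 1 of WT SP4 (0.115), and it ranged from -1.72 to -0.93 without single arrays. The *Cd8b1* call between SP4 and CD69- DP was lost with all rows (0.117), with background subtracted (0.104), with cyclic loess (0.0563), with arrays centred on their medians (0.0613) and without either WT CD69- DP array or number 1 of WT SP4, and ranged from -1.42 to -0.55 without single arrays. *Cd8b1* at the step into SP4 ranged from -0.48, where it passed, to -0.19 without single arrays.

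Centring on medians turned *Cd4* at the step into SP4 in Gli3-/- to 0.054 and its change of the Gli3-/- effect from CD69+ DP to SP4 to 0.0074. Leaving out single arrays turned the sign of differences that had not passed. For *Cd4* the step into SP4 ranged from -0.063 to 0.12 over genotypes, -0.19 to 0.22 in WT, -0.17 to 0.32 in Gli3+/- and -0.28 to 0.25 in Gli3-/-. In the order CD69- DP, CD69+ DP and SP4, *Cd4* ranged from -0.23 to 0.12, -0.17 to 0.24 and -0.26 to 0.27 for Gli3-/- against WT. For Gli3+/- against WT it ranged from -0.082 to 0.20, -0.22 to 0.27 and -0.022 to 0.20, and for Gli3-/- against Gli3+/- from -0.29 to 0.060, -0.24 to 0.25 and -0.35 to 0.19. The change of its Gli3-/- effect ranged from -0.11 to 0.29 between the DP populations, -0.29 to 0.24 from CD69+ DP to SP4 and -0.20 to 0.33 from CD69- DP to SP4. *Cd8a* in Gli3-/- against Gli3+/- ranged from -0.13 to 0.070, -0.32 to 0.15 and -0.17 to 0.22, in Gli3+/- against WT CD69+ DP from -0.32 to 0.15, and its change of effect between the DP populations from -0.18 to 0.072. *Cd8b1* in Gli3-/- against Gli3+/- ranged from -0.11 to 0.046, -0.30 to 0.13 and -0.17 to 0.18. Against WT it ranged from -0.40 to 0.075 (CD69+ DP) and -0.066 to 0.80 (SP4) in Gli3-/- and from -0.31 to 0.16 and -0.074 to 0.79 in Gli3+/-. Its step into SP4 in Gli3-/- ranged from -0.31 to 0.059 and its change of effect between the DP populations from -0.30 to 0.18.

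With 1 genotype left out, 4 pairs remain and the smallest exact permutation p is 0.125, so no balance could pass. Without WT, Gli3+/- and Gli3-/- in turn, *Cd4* against the *Cd8* genes changed by -0.29, -0.28 and -0.37 into CD69+ DP and by 0.38, 0.65 and 0.74 into SP4. *Cd8b1* against *Cd8a* changed by 0.36, 0.51 and 0.52 into SP4 and by 0.29, 0.45 and 0.46 from CD69- DP to SP4. In an alternative chosen after seeing the data, without number 1 of WT, 5 pairs remain and the smallest exact permutation p is 0.0625. *Cd4* against the *Cd8* genes then changed by -0.27 into CD69+ DP and 0.40 into SP4, and *Cd8b1* against *Cd8a* by 0.40 into SP4 and 0.37 from CD69- DP to SP4. The marker lists of Gli3-/- against number 2 of WT alone were likewise chosen after seeing the data. Other normalisations moved no array median by more than 0.078 (log2). Another row for a member was not run, since each had 1. Dim genes such as *Zbtb7b* and *Runx3* lay near the background limit, which limits their values.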
